A study of Mus musculus with 12 samples.

Results

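The genes described here are Tigit and 9 further genes of checkpoint receptors or their close partners: Cd226, Cd96, Pdcd1, Lag3, Havcr2, Btla, Cd160, Cd200 and Cd274. They were picked by symbol, with earlier results of these data known, and all 10 were found among the 24394 named entries of the expression table. RNA-seq was done on Treg cells, the CD4 T cells that hold immune responses in check, taken from C57BL/6 mice aged 7 weeks, in 4 groups of 3 libraries. KO cells at 48 h and WT cells at 48 h had been cultured with IL-2 (200 U/ml) in wells coated with anti-CD3 and anti-CD28 (5 µg/ml), while unstimulated KO cells and unstimulated WT cells had not. KO cells carry the genotype Foxp3CreBatffl/fl, in which Cre recombinase made from the Foxp3 gene cuts Batf, a transcription factor of the AP-1 family, so deletion is limited to cells that have switched on Foxp3. The labels give the other mice as WT and name no Cre in them, so Cre itself and the loss of Batf cannot be told apart, and the sources used here do not state how the cells were gated.

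Checkpoint receptors set how strongly a T cell answers its antigen. TIGIT and the costimulatory receptor CD226 compete for the same ligands, the poliovirus receptor PVR and nectins, and CD96 is a further receptor of PVR. PD-1, encoded by Pdcd1, is bound by PD-L1, encoded by Cd274. BTLA and CD160 bind the TNF receptor HVEM, LAG-3 binds MHC class II, TIM-3 (encoded by Havcr2) binds galectin-9 among others, and CD200 is a ligand that quiets cells bearing its receptor. In mouse Treg cells TIGIT is known as a mark of strongly suppressive effector cells.

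All values are RPKM, read counts scaled by exon length and by the reads assigned to genes, and they are given for libraries 1, 2 and 3 in that order. Between 22731823 and 32055383 reads were assigned per library. The labels do not state whether a group's 3 libraries stem from separate mice, so the p-values measure the variation among these libraries, part of which may be technical. Batf was at 26.5, 21.2 and 17.98 RPKM in KO cells at 48 h against 134, 125 and 128 in WT cells at 48 h, and at 46.9, 32.99 and 25.9 in unstimulated KO cells against 103, 93.3 and 90.03 in unstimulated WT cells. The Treg markers Foxp3, Il2ra, Ikzf2, Cd4 and Cd3e were above 1 RPKM in all 12 libraries. Foxp3 averaged 27.5 ± 1.24 RPKM in KO and 33.96 ± 2.79 in WT cells at 48 h, and 58.4 ± 6.83 in unstimulated KO and 70.2 ± 4.99 in unstimulated WT cells (SD, n = 3 each), lower in KO cells by test at 48 h only (log2 fold changes -0.29 and -0.26, limma adjusted p = 0.0373 and 0.0772). Of the 5 Treg markers 3 were lower in KO cells at 48 h, against 9.81% of all tested genes. Without stimulation 1 was lower, against 5.83% of all. Ikzf2, which encodes Helios, was lower in both states (-1.04 at 48 h, adjusted p = 6.43e-05, and -0.63 unstimulated, adjusted p = 0.00511), and Il2ra was lower at 48 h (-0.36, adjusted p = 0.00993); the part of these shifts in the results below was not tested. WT libraries 1 and 2 of both states held Y-linked transcripts (Eif2s3y at 38.6 to 57.7 RPKM), and the other 8 libraries, all 6 KO libraries among them, did not (at most 0.0718 RPKM), so WT library 3 did not come from the same mice as WT libraries 1 and 2. Results that change when this is taken into account are given with and without it.

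Fold changes below are limma estimates on log2(RPKM + 1) over 10406 tested genes, a scale that understates changes of genes with few reads, with p-values adjusted by Benjamini-Hochberg over all tested genes. A gene counts as called at an adjusted p under 0.05. Because the 10 genes were chosen with earlier results of these data known, the counts below are not independent support. Without stimulation, 6 of the 10 genes were called, against 10.2% of all tested genes: Tigit, Cd96, Pdcd1, Havcr2 and Cd160 (5 of 10, against 5.83% of all) were lower in KO cells, and Btla (1 of 10, against 4.35%) was higher. At 48 h 2 were called, against 17.6% of all tested genes, with Lag3 lower (1 of 10, against 9.81%) and Cd274 higher (1 of 10, against 7.76%) in KO cells. Stimulation here stands for all that separates the 2 states, including culture, IL-2 and the antibodies. Their parts cannot be told apart. With stimulation 7 of 10 genes changed in KO cells and 7 of 10 in WT cells. That was close to the 78.8% and 79.9% of all tested genes. In KO cells 3 rose (44.3% of all) and 4 fell (34.6% of all), and in WT cells 2 rose (44.5%) and 5 fell (35.4%). Libraries of the 2 states did not overlap for 8 of 10 genes in KO cells (80.4% of all) and for 7 of 10 in WT cells (81.8% of all). The change with stimulation differed between genotypes for 3 of 10 (Tigit, Pdcd1 and Lag3), against 4.62% of all tested genes; it was more positive in KO cells for 2 (2.37% of all) and more negative for 1 (2.25% of all). Havcr2 passed the filter of at least 1 RPKM in 3 libraries through unstimulated WT cells, with KO library 1 at 48 h as the only other library above 1, so its genotype difference is not independent of the filter.

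**Figure D1:**
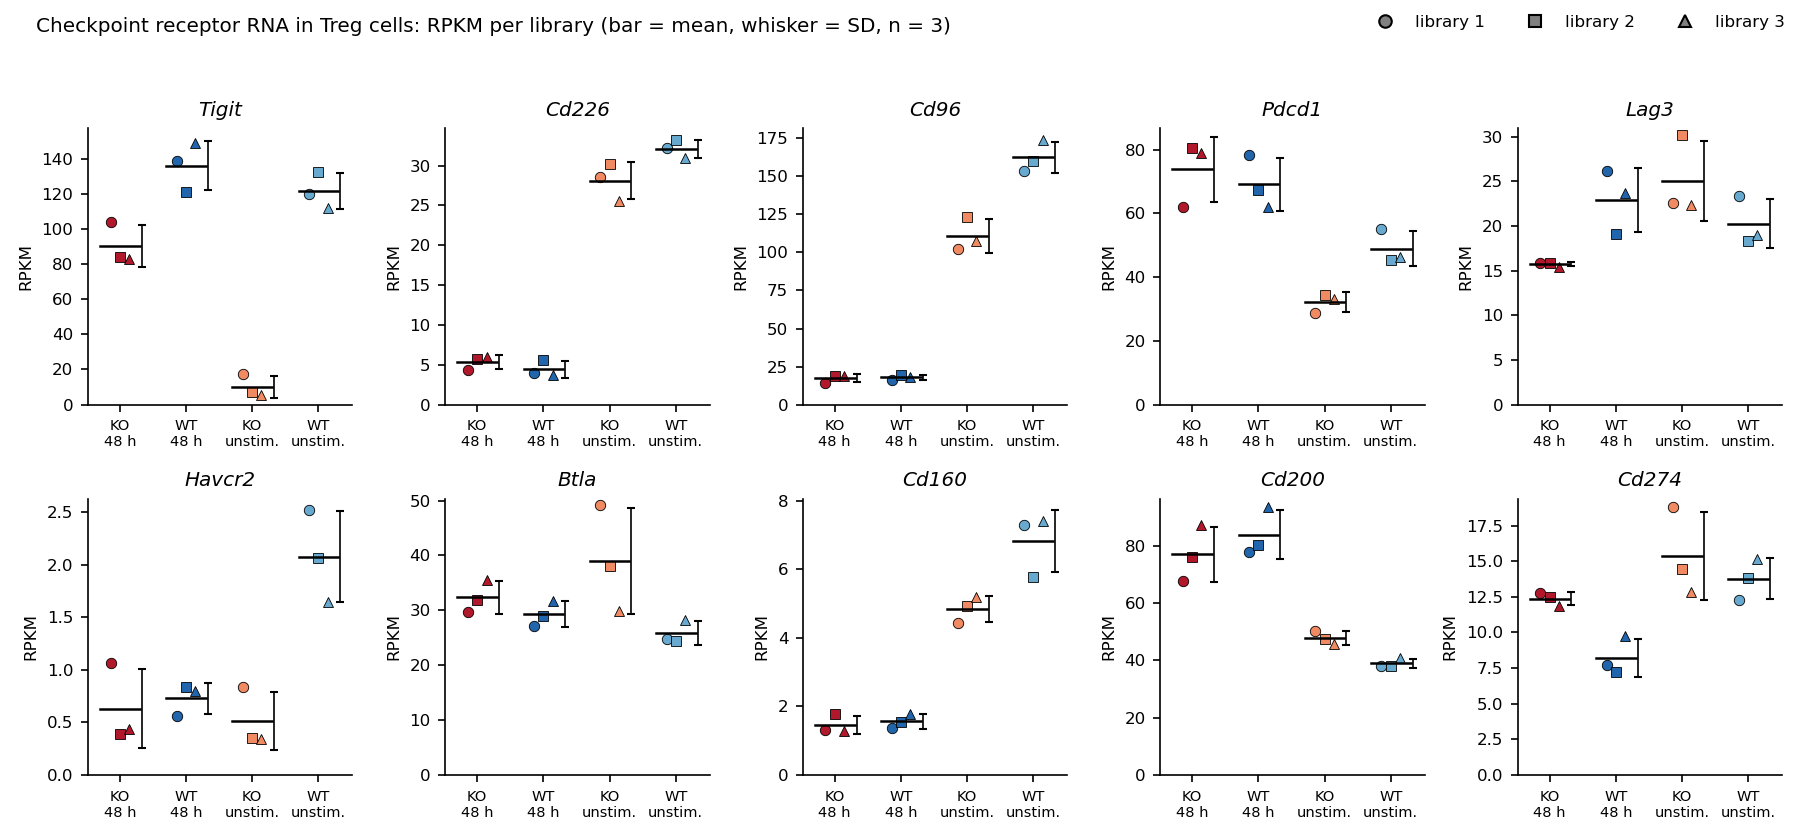
RPKM of the 10 genes in each library (y axes start at 0), with KO and WT cells at 48 h on the left of each panel and unstimulated KO and WT cells on the right; markers are libraries, bars are means and whiskers SD (n = 3). Tigit at 5.58 to 17.2 RPKM in unstimulated KO cells stands far below its other groups, while Cd226, Cd96 and Cd160 are low in both genotypes at 48 h.

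Tigit lies on chromosome 16 (43648861 to 43664184, minus strand, mm10, 4 exon intervals in the table). Its 250 bases before the start are shown because it has the largest difference of the 10 genes. Those of Havcr2 are shown because, among the 8 genes searched, its window alone holds a match to the pattern TGANTCA. The search covered both strands for TGANTCA, a loose pattern of AP-1 sites. It also covered the AP-1-IRF composite element, in which that pattern directly follows part of an IRF site. The windows ran from 250 bases before to 50 after each start (RefSeq, GRCm38.p6). They covered 8 of the 10 genes with 9 windows, and Cd226 and Lag3 were not searched. TGANTCA was found in 1 of these 9 windows and in 7.81% of all 32851 windows of that length. This form of the composite element was in 0 of 9 and in 0.125% of all. The match in the Havcr2 window, in capitals below, begins 200 bases before the start. These are descriptions of the letters in the windows, and more distant elements were not searched.
Tigit (chr16:43664185-43664434, minus strand): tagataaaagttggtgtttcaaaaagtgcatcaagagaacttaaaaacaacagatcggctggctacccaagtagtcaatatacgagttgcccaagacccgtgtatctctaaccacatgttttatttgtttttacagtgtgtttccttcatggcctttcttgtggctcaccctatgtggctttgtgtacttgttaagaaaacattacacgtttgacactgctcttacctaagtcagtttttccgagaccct
Havcr2 (chr11:46454681-46454930, plus strand): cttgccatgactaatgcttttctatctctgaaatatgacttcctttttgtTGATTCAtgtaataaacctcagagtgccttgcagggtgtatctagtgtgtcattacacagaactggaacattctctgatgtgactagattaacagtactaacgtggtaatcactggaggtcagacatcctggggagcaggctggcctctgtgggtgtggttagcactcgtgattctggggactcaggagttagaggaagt

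Tigit was the most genotype-dependent of the 10 genes in unstimulated cells, and the difference was much smaller after stimulation. In unstimulated KO cells it was at 17.2, 6.85 and 5.58 RPKM, from 380, 150 and 142 reads. In unstimulated WT cells it was at 119.7, 133 and 112 RPKM, from 3097, 2956 and 2545 reads. The groups lay far apart, and KO library 1, which kept the most Batf RNA of the KO libraries, also had the most Tigit. On the log2 scale KO cells differed from WT cells by -3.64 (SE 0.27, limma adjusted p = 3.08e-06), the second lowest of the 10406 tested genes, and it was called in all 22 alternative fits, with values from -4.09 to -3.35. In bulk RNA, fewer TIGIT-expressing cells and less Tigit RNA per cell cannot be told apart, here and for every gene below.

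At 48 h Tigit was at 104, 84.1 and 82.9 RPKM in KO cells against 138, 121 and 149 in WT cells. Every KO library was below every WT library, but the log2 fold change of -0.59 (SE 0.27, 95% interval -1.21 to 0.03) was not called. Its limma p was 0.048 before and 0.146 after adjustment. The 12-library fit takes 1 spread for all 4 groups, and the unstimulated KO libraries of Tigit are uneven on a log scale. With the 6 libraries at 48 h fitted alone the same difference was called (adjusted p = 0.0078), as it was without unstimulated KO library 1 (0.00276), without both KO libraries numbered 1 (0.00128) and with limma-voom on the reads (0.0126).

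Stimulation raised Tigit in KO cells by a log2 fold change of 3.21 (SE 0.27, adjusted p = 1.02e-07). In WT cells the change was 0.16 (SE 0.27, 95% interval -0.46 to 0.78, adjusted p = 0.596), and the 3 libraries at 48 h overlapped the 3 unstimulated ones. The change in KO cells exceeded that in WT cells by 3.05 (SE 0.38, limma adjusted p = 0.00062). This held in 21 of 22 alternative fits; with the 4 libraries holding Y-linked transcripts left out, where WT library 3 alone stands for WT in each state, the value was 2.81 (adjusted p = 0.14).

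**Figure D2:**
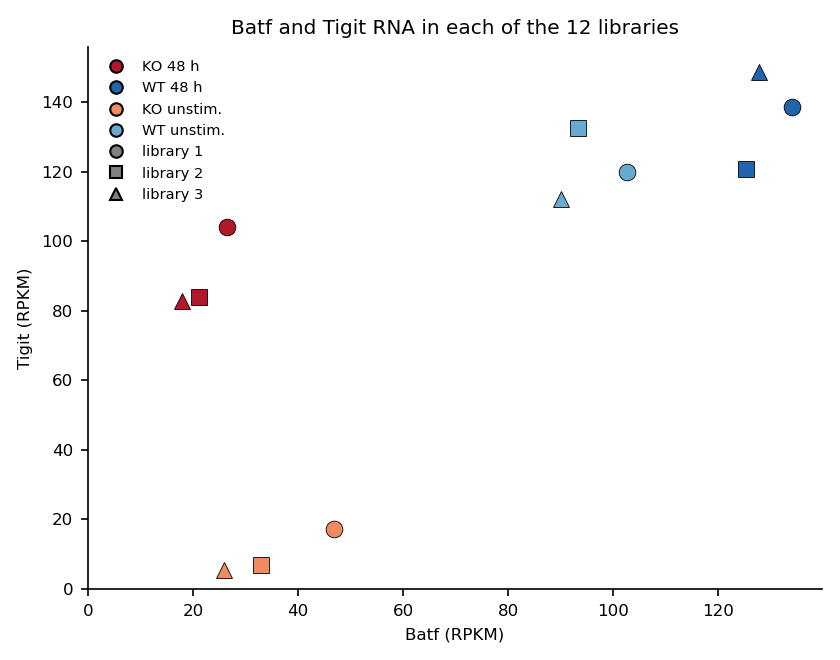
Batf RPKM (x axis) against Tigit RPKM (y axis) in each of the 12 libraries, coloured by group with the marker giving the library number. KO libraries at 48 h hold 82.9 to 104 RPKM of Tigit at 17.98 to 26.5 RPKM of Batf, whereas unstimulated KO libraries hold 5.58 to 17.2 RPKM of Tigit at 25.9 to 46.9 RPKM of Batf.

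Batf itself was lower in KO cells at 48 h than in unstimulated KO cells (log2 fold change -0.64, SE 0.17, limma adjusted p = 0.0034), although the libraries overlapped, so Tigit was higher in the KO group that held less Batf RNA, as the plot of both genes shows. Reads over exons left in place count toward Batf in KO cells, and the deleted exons are not named in the labels. The next entries along chromosome 16 were Mir568 and Gm15713 on 1 side of Tigit and Drd3 and Qtrtd1 on the other. Gm15713 had no reads in any library and Drd3, a dopamine receptor, averaged at most 0.0261 RPKM in a group. Qtrtd1 was at 3.61 ± 0.102 RPKM in unstimulated KO and 3.82 ± 0.940 in unstimulated WT cells (n = 3 each, log2 fold change -0.05, adjusted p = 0.849).

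Cd226, the costimulatory receptor that shares ligands with TIGIT, was not called between genotypes. In unstimulated cells it was at 28.6, 30.2 and 25.6 RPKM in KO and 32.2, 33.2 and 30.9 RPKM in WT libraries (log2 fold change -0.19, 95% interval -0.49 to 0.11, limma adjusted p = 0.393). The KO libraries lay just below the WT ones without overlap, which was so for 8 of the 10 genes and for 27.9% of all tested genes. At 48 h it was at 4.32, 5.71 and 6.01 RPKM in KO and 3.91, 5.65 and 3.74 RPKM in WT cells. Stimulation thus lowered Cd226 in both genotypes, with log2 fold changes of -2.21 in KO and -2.62 in WT cells (SE 0.13 each, adjusted p = 3.17e-09 and 5.17e-10). The difference between these changes was 0.42 (95% interval -0.01 to 0.84, adjusted p = 0.231).

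The ratio of Tigit to Cd226 RNA, which compares the inhibitory and the costimulatory receptor within a library, therefore moved with both genotype and stimulation. In unstimulated cells it was 0.604, 0.227 and 0.218 in KO libraries against 3.72, 3.99 and 3.62 in WT libraries. At 48 h it was 24.0, 14.7 and 13.8 in KO libraries against 35.5, 21.4 and 39.7 in WT libraries. Tigit RNA was thus less abundant than Cd226 RNA in the unstimulated KO group and more abundant in the other 3 groups. At 48 h the genotypes overlapped in this ratio through KO library 1 and WT library 2.

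**Figure D3:**
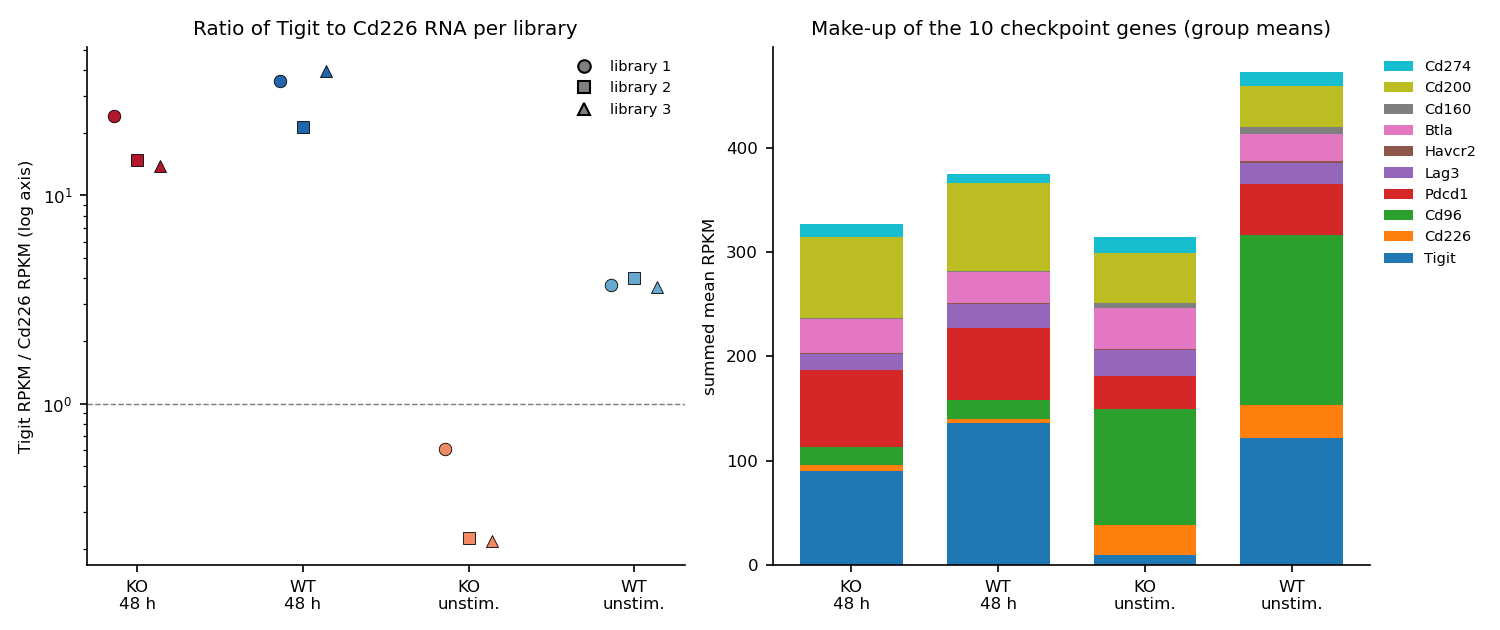
Left, the ratio of Tigit to Cd226 RPKM in each library on a log axis, with a dashed line at 1; right, group means of RPKM of the 10 genes stacked, with the axis starting at 0. The unstimulated KO libraries are the only ones below a ratio of 1 (0.218 to 0.604), and Cd96 takes the largest part of both unstimulated bars and a small part of both bars at 48 h.

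Cd96, an adhesion and checkpoint receptor for PVR, was the most abundant of the 10 genes in unstimulated cells of both genotypes. It was at 102, 124 and 107 RPKM in unstimulated KO against 154, 160.0 and 174 RPKM in unstimulated WT cells. The groups did not overlap, with a log2 difference of -0.55 (SE 0.11, limma adjusted p = 0.00663). The call was lost only without the 4 libraries with Y-linked transcripts (-0.65, adjusted p = 0.131) among 22 alternative fits. At 48 h Cd96 had dropped to 14.3, 19.0 and 19.0 RPKM in KO and 16.3, 19.3 and 18.3 RPKM in WT cells, which overlapped (log2 fold change -0.05, 95% interval -0.30 to 0.20, adjusted p = 0.789). The fall with stimulation was 2.61 in KO and 3.11 in WT cells on the log2 scale (adjusted p = 1.22e-10 and 2.45e-11). The difference between these falls, 0.50 (SE 0.15), was not called (adjusted p = 0.0905), but it was with genotype and library number as a block (0.0302), with number alone as a block (0.0344), without KO library 1 at 48 h (0.021) and without both KO libraries numbered 1 (0.0352).

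Pdcd1 (chromosome 1, 94038305 to 94052553, minus strand, mm10), which encodes PD-1, was lower in KO cells without stimulation and was not called between genotypes at 48 h. It was at 28.7, 34.6 and 33.3 RPKM in unstimulated KO and 55.3, 45.4 and 46.2 RPKM in unstimulated WT cells. All KO libraries were below all WT libraries (log2 fold change -0.59, SE 0.12, limma adjusted p = 0.00734). With Y-linked transcripts as a term the value was -0.48 (adjusted p = 0.0604), and with the libraries holding them left out it was -0.51 (adjusted p = 0.196). At 48 h KO cells had 62.1, 80.4 and 79.1 RPKM and WT cells 78.3, 67.4 and 62.0 RPKM, with overlap (log2 fold change 0.09, 95% interval -0.18 to 0.36, adjusted p = 0.629).

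Stimulation raised Pdcd1 in both genotypes, by 1.17 in KO and 0.49 in WT cells on the log2 scale (SE 0.12 each, adjusted p = 6.76e-07 and 0.00171). The WT rise was 0.42 (adjusted p = 0.09) when the libraries holding Y-linked transcripts were left out. With the libraries holding Y-linked transcripts left out, the rise was greater in KO cells by 0.75 and was not called. With all libraries it was greater by 0.68 (SE 0.17, limma adjusted p = 0.0377). That call lies near the threshold: it was lost in 12 of 22 alternative fits, with values from 0.59 to 0.80 and adjusted p from 0.00321 to 0.197. Among them were the fits without any 1 of unstimulated WT libraries 1, 2 and 3 (adjusted p = 0.0942, 0.0551 and 0.0674), unstimulated KO library 1 (0.0754), WT libraries 2 and 3 at 48 h (0.0924 and 0.0872) or KO libraries 2 and 3 at 48 h (0.0945 and 0.105).

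Cd274 (chromosome 19, 29367438 to 29388094, plus strand, mm10), which encodes the PD-1 ligand PD-L1, differed between genotypes at 48 h. KO cells had 12.8, 12.5 and 11.9 RPKM against 7.68, 7.25 and 9.76 RPKM in WT cells. The groups did not overlap, which was so for 3 of the 10 genes and for 41.8% of all tested genes at 48 h. On the log2 scale the KO cells were higher by 0.54 (SE 0.13, limma adjusted p = 0.0127). It became 0.47 without WT library 2 at 48 h (adjusted p = 0.0612), 0.36 with Y-linked transcripts as a term (0.0941) and 0.31 when the libraries holding them were left out (0.268), where WT library 3, the highest of the WT libraries, is the only WT library left at 48 h.

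In unstimulated cells Cd274 was at 18.8, 14.5 and 12.8 RPKM in KO and 12.3, 13.8 and 15.2 RPKM in WT libraries, which overlapped (log2 fold change 0.14, adjusted p = 0.547). With stimulation it fell in WT cells by 0.68 on the log2 scale (SE 0.13, adjusted p = 0.000284). The change in KO cells was -0.28 (SE 0.13, adjusted p = 0.0682). With genotype and library number as a block the KO change was called (adjusted p = 0.0243), as it was with Y-linked transcripts as a term (0.041). It was also called without unstimulated KO library 3 (-0.39, adjusted p = 0.0169) and without WT library 3 at 48 h (0.047). With limma-voom on the reads it was called as well (-0.41, adjusted p = 0.00762). The difference between the genotypes' changes was 0.41 (95% interval -0.02 to 0.83, adjusted p = 0.248).

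**Figure D4:**
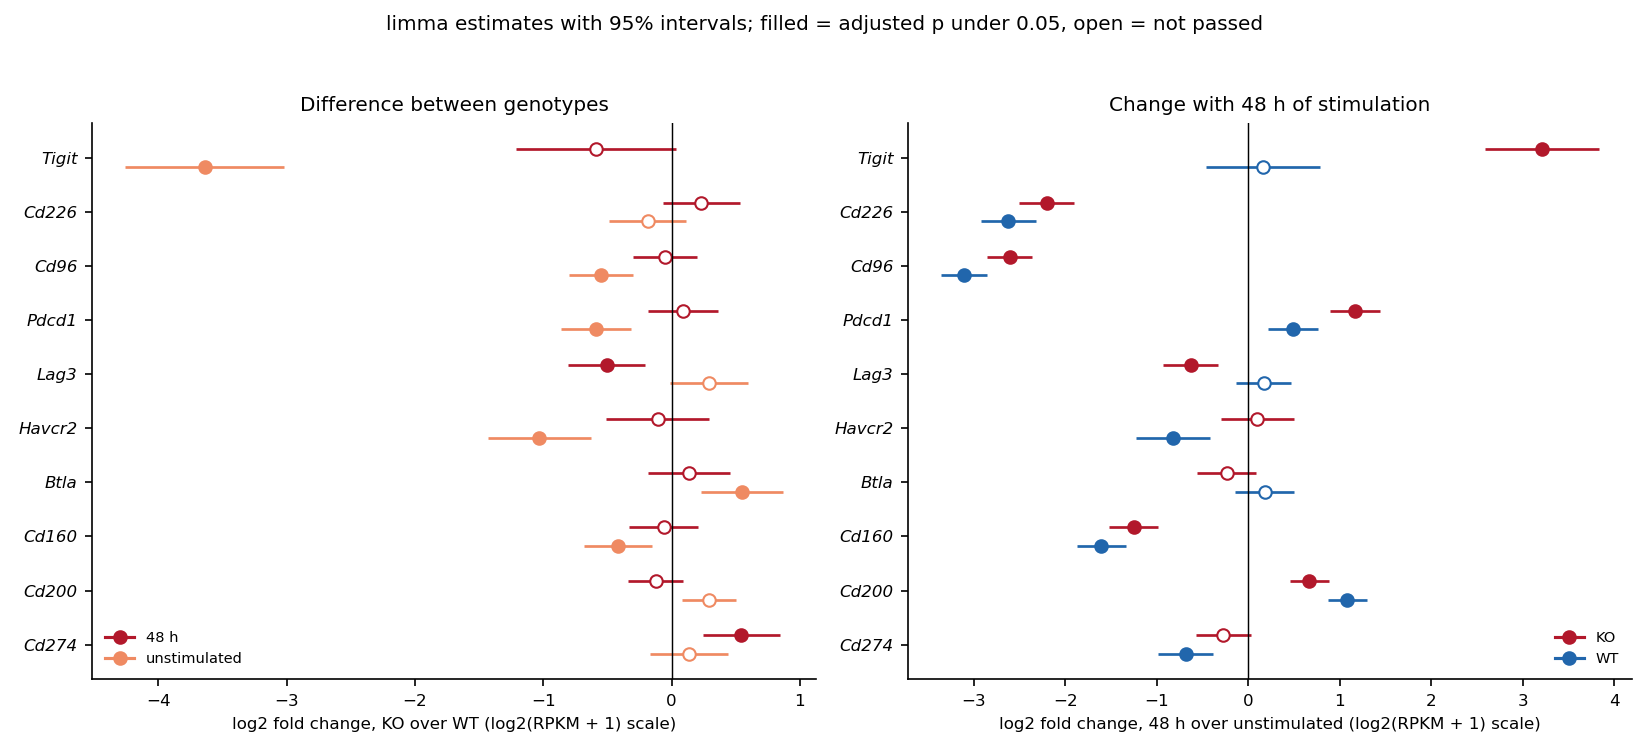
limma log2 fold changes of the 10 genes with 95% intervals (lines): left, KO over WT at 48 h and unstimulated; right, 48 h over unstimulated in KO and WT cells; filled points have an adjusted p under 0.05. The unstimulated genotype difference of Tigit (-3.64) is far outside the others, which lie between -1.03 and 0.55. Intervals use 8 residual degrees of freedom and are wider than limma's own.

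Lag3, an inhibitory receptor for MHC class II, was lower in KO cells at 48 h, whereas its unstimulated level was not called. At 48 h it was at 15.8, 15.9 and 15.5 RPKM in KO against 26.1, 19.1 and 23.7 RPKM in WT cells. The 3 KO libraries were nearly equal and below every WT library (log2 fold change -0.51, SE 0.13, limma adjusted p = 0.0186). The call was lost without WT library 3 (-0.48, adjusted p = 0.0689), KO library 2 (-0.51, 0.0515) or KO library 3 at 48 h (-0.50, 0.0642), with Y-linked transcripts as a term (-0.49, 0.0612) and when the libraries holding them were left out (-0.56, 0.0545).

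In unstimulated cells Lag3 was at 22.6, 30.2 and 22.4 RPKM in KO and 23.4, 18.3 and 19.0 RPKM in WT libraries (log2 fold change 0.29, 95% interval -0.01 to 0.59, adjusted p = 0.177). Lag3 fell with stimulation in KO cells (-0.63, SE 0.13, adjusted p = 0.000587), and in WT cells the change was 0.17 (95% interval -0.13 to 0.47, adjusted p = 0.249). The KO change was below the WT change by 0.80 on the log2 scale (fitted difference -0.80, SE 0.19, adjusted p = 0.0293), the reverse of the sign seen for Tigit and Pdcd1. When the libraries holding Y-linked transcripts were left out, the difference was -0.93 and was not called. In all, the call was lost in 9 of 22 alternative fits, with values from -0.93 to -0.66. Those that left out 1 library were the fits without unstimulated WT library 2 or 3 (adjusted p = 0.0741 and 0.0816), WT library 3 at 48 h (0.0661) or any KO library at 48 h (0.054, 0.0608 and 0.0772).

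Havcr2, which encodes TIM-3, was the least abundant of the 10 genes in every group. In unstimulated cells it was at 0.834, 0.355 and 0.347 RPKM in KO, from 52, 22 and 25 reads, against 2.51, 2.06 and 1.65 RPKM in WT cells, from 184, 130 and 106 reads. The groups did not overlap, with a log2 fold change of -1.03 (SE 0.17, limma adjusted p = 0.00257). It was called in the 20 alternative fits in which it passed the filter. TIM-3 is also made by myeloid cells. Of 7 tested myeloid markers 5 were lower in unstimulated KO cells, against 5.83% of all tested genes. The other called marker, Xcr1, was higher (1 of 7, against 4.35% of all). Of these, Cebpa passed the filter only through unstimulated WT libraries and Xcr1 only through unstimulated KO libraries. C1qa, C1qb and C1qc reached 1 RPKM in fewer than 3 KO libraries, so they passed only with the help of unstimulated WT libraries. The calls of all these genes are not independent of the filter. The summed RPKM of all 12 myeloid markers was 23.5 to 25.5 in unstimulated KO and 31.8 to 39.2 in unstimulated WT cells. The part of these cells in the Havcr2 difference was not tested.

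At 48 h Havcr2 was at 1.06, 0.389 and 0.435 RPKM in KO and 0.561, 0.834 and 0.796 RPKM in WT cells, which overlapped (log2 fold change -0.11, adjusted p = 0.703). The myeloid markers then summed to 0.940 to 1.83 RPKM in KO and 3.07 to 3.63 RPKM in WT cells, with C1qa and C1qb at 0 in all 6 libraries. With stimulation Havcr2 fell in WT cells by 0.82 on the log2 scale (adjusted p = 0.00065), and in KO cells the change was 0.10 (95% interval -0.30 to 0.50). The difference between these changes was 0.92 (SE 0.25, adjusted p = 0.052); it was called with genotype and number as a block (0.0236), with number alone as a block (0.0423), after median-ratio rescaling (0.0478), without unstimulated KO library 1 (0.0258) and without both KO libraries numbered 1 (0.0291).

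Btla, an inhibitory receptor for HVEM, was the only one of the 10 genes called higher in unstimulated KO cells. It was at 49.1, 38.0 and 29.8 RPKM in KO against 24.7, 24.5 and 28.3 RPKM in WT libraries. The KO libraries spread widely, and library 3 was only just above the highest WT library. On the log2 scale the difference was 0.55 (SE 0.14, limma adjusted p = 0.0247), and 8 of 22 alternative fits did not call it. These included the fits without unstimulated KO library 1 (0.37, adjusted p = 0.0703), unstimulated WT library 1 (0.52, 0.0845) or unstimulated WT library 2 (0.51, 0.0789), the 6 libraries fitted alone (0.067) and the fit with a Y-linked term (0.43, 0.139). The same happened without a filter (0.0601), without both KO libraries numbered 1 (0.37, 0.0704) and when the libraries holding Y-linked transcripts were left out (0.42, 0.417).

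B cells express BTLA as well, and their markers were uneven among the same libraries. The 7 B cell markers summed to 87.6, 47.9 and 43.4 RPKM in unstimulated KO and 46.1, 39.3 and 39.2 RPKM in unstimulated WT cells, so that library 1 was the highest KO library for these markers and for Btla. Of 5 tested B cell markers 0 were called in either direction by limma, against 10.2% of all tested genes. Their part in the Btla difference was not tested. At 48 h the B cell markers summed to 8.32, 3.997 and 5.03 RPKM in KO and 4.39, 2.66 and 3.85 RPKM in WT cells. Btla was then still at 29.7, 31.8 and 35.5 RPKM in KO and 27.2, 29.0 and 31.8 RPKM in WT cells (log2 fold change 0.14, 95% interval -0.19 to 0.46, adjusted p = 0.528). The change of Btla with stimulation was -0.24 in KO (adjusted p = 0.134) and 0.18 in WT cells (adjusted p = 0.254). In KO cells it was called with limma-voom (-0.35, adjusted p = 0.0207) and without unstimulated KO library 3 (-0.41, adjusted p = 0.00577). Without that library the difference between the changes was called too (-0.59, adjusted p = 0.0482, against -0.41 and 0.268 with all libraries).

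Cd160, a second receptor for HVEM found mostly on cytotoxic lymphocytes, was at 4.43, 4.93 and 5.18 RPKM in unstimulated KO and 7.30, 5.77 and 7.41 RPKM in unstimulated WT cells. The groups did not overlap (log2 fold change -0.42, SE 0.12, limma adjusted p = 0.0383). Of the calls among the 10 genes this was lost most often, in 14 of 22 alternative fits with values from -0.53 to -0.36. It was lost without any 1 of unstimulated WT libraries 1 and 3 (adjusted p = 0.129 and 0.139), the 3 unstimulated KO libraries (0.114, 0.0521 and 0.0541), WT library 2 at 48 h (0.0551) and KO library 3 at 48 h (0.0507). With number as a block the adjusted p was 0.0555. The call was also lost when the libraries holding Y-linked transcripts were left out (-0.53). In unstimulated cells the summed markers of CD8 T and NK cells overlapped between genotypes. They ran from 22.7 to 28.8 RPKM in KO and from 25.0 to 26.5 RPKM in WT cells. Of 6 tested markers 1 (Eomes) was called higher in unstimulated KO cells, against 4.35% of all tested genes. Eomes passed the filter only through KO libraries. At 48 h Cd160 was at 1.32, 1.77 and 1.29 RPKM in KO and 1.36, 1.55 and 1.77 RPKM in WT cells, lower than without stimulation in both genotypes (log2 fold changes -1.253 in KO and -1.61 in WT cells, adjusted p = 2.78e-07 and 2.01e-08). Of 6 tested CD8 T and NK cell markers, 5 fell with stimulation in KO cells (34.6% of all tested genes did). In WT cells 6 fell (35.4% of all). The list summed to 4.97 to 6.62 RPKM in KO and 4.62 to 6.58 RPKM in WT cells at 48 h. The part of these markers in the change of Cd160 was not tested.

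Cd200, the ligand of an inhibitory receptor on myeloid cells, rose with stimulation in both genotypes. It was at 67.8, 76.0 and 87.1 RPKM in KO cells at 48 h against 50.3, 47.6 and 45.7 RPKM in unstimulated KO cells (log2 fold change 0.67, SE 0.09, limma adjusted p = 1.48e-05). In WT cells it was at 77.8, 80.2 and 93.7 RPKM at 48 h against 38.0, 38.0 and 40.9 RPKM without stimulation (1.08, SE 0.09, adjusted p = 1.09e-07). The unstimulated KO libraries were all above the unstimulated WT ones, by 0.29 on the log2 scale (95% interval 0.08 to 0.50), without reaching the threshold (adjusted p = 0.0634). That difference was called without WT library 3 at 48 h (0.0416), KO library 1 at 48 h (0.0451) or KO library 3 at 48 h (0.0482), after median-ratio rescaling (0.0388), with limma-voom (0.0413) and with the 6 libraries fitted alone (0.0491). At 48 h the genotypes overlapped (-0.12, adjusted p = 0.365).

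Tigit, Btla, Cd200 and Cd96 all lie on chromosome 16 in that order. Btla (45224337 to 45252895, plus strand) and Cd200 (45382135 to 45409053, minus strand) are next to each other with 129239 bases between them and 0 table entries in the gap. Cd96 (46035657 to 46120248, minus strand) follows 626603 bases after Cd200, and Tigit lies 1560152 bases before Btla. These 4 genes did not share a direction between genotypes without stimulation, since Tigit and Cd96 were lower in KO cells, Btla was higher and Cd200 was not called.

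The order of the levels also differed between groups. In unstimulated KO cells Cd96 was highest (mean 111 RPKM), followed by Cd200 (47.9), Btla (39.0), Pdcd1 (32.2), Cd226 (28.1), Lag3 (25.1), Cd274 (15.4), Tigit (9.89), Cd160 (4.85) and Havcr2 (0.512). Library ranges overlapped between neighbours from Cd200 through Lag3 and between Cd274 and Tigit. In unstimulated WT cells the order was Cd96 (163 RPKM), Tigit (121), Pdcd1 (48.9), Cd200 (39.0), Cd226 (32.1), Btla (25.8), Lag3 (20.2), Cd274 (13.8), Cd160 (6.83) and Havcr2 (2.07), with no overlap between neighbours. Tigit was thus in place 2 of 10 in unstimulated WT and in place 8 of 10 in unstimulated KO cells.

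At 48 h Tigit led in both genotypes, with Cd200 and Pdcd1 next. In KO cells their means were 90.3, 77.0 and 73.9 RPKM, and their libraries overlapped from each gene to the next. In WT cells the means were 136, 83.9 and 69.2 RPKM, and Tigit lay above Cd200 without overlap. Tigit made up 27.8% ± 4.73 of the summed RPKM of the 10 genes in KO and 36.3% ± 1.70 in WT cells at 48 h, and 3.12% ± 1.93 in unstimulated KO and 25.7% ± 2.22 in unstimulated WT cells (SD, n = 3 each). The sum itself was 326 ± 12.7 RPKM in KO and 374 ± 21.7 in WT cells at 48 h, and 314 ± 22.7 in unstimulated KO and 473 ± 3.25 in unstimulated WT cells.

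Over all 10 genes the median log2 fold change between genotypes was -0.30 without stimulation (median of all tested genes -0.02) and -0.06 at 48 h (-0.0036). For stimulation it was -0.26 in KO cells (0.12 over all tested genes) and -0.26 in WT cells (0.11). Scaling the libraries by median ratios of reads moved the changes of all genes with stimulation by -0.10 in KO and -0.09 in WT cells at the median. Under it Btla (-0.35, limma adjusted p = 0.0311) and Cd274 (-0.38, 0.014) were called lower at 48 h in KO cells, and no called gene of the 10 changed direction.

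The genes most like Tigit in level across the 12 libraries, by Pearson correlation of log2(RPKM + 1) among 7092 other tested genes with a mean of at least 5 RPKM, were the chemokine receptor Ccr4 (0.97), the kinase Vrk1 (0.94), the protease Gzmb (0.94), the adhesion receptor Cd44 (0.93) and the sugar enzyme Galm (0.93). Ccr4 averaged 29.9 ± 3.65 RPKM in KO and 50.2 ± 9.25 in WT cells at 48 h, and 8.39 ± 2.06 in unstimulated KO and 45.2 ± 6.56 in unstimulated WT cells. Gzmb averaged 22.9 ± 2.21 and 43.7 ± 3.06 RPKM in KO and WT cells at 48 h, and 3.47 ± 1.73 and 18.4 ± 3.33 in unstimulated KO and WT cells. Both were thus lowest in the unstimulated KO group, as Tigit was. When each gene was set against the mean of its own state, the closest were Cxcr3 (0.97), Cpd (0.97), Cd44 (0.96), B3gnt2 (0.96) and Ccr4 (0.96). The highest for Cd274 were the guanylate-binding protein gene Gbp3 (0.94), Rab27a (0.94), Camk2d (0.93), the death ligand Tnfsf10 (0.93) and Acat1 (0.92). For Lag3 they were lower, at 0.80 for Ugp2, 0.76 each for Rara, Ikzf3 and Dctn6, and 0.75 for Zyx. These values describe 12 libraries that share 4 groups, so they mostly compare group means.

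Of the ligands and relatives of TIGIT, CD226 and CD96, only Pvr and Crtam were tested, and neither was called between genotypes. Pvr, the ligand they share, was at 14.6 ± 2.39 RPKM in KO and 13.5 ± 0.721 in WT cells at 48 h, and 10.7 ± 0.545 in unstimulated KO and 9.49 ± 1.09 in unstimulated WT cells. It rose with stimulation by 0.40 in KO and 0.47 in WT cells on the log2 scale (adjusted p = 0.00422 and 0.00146). The nectin genes, listed as Pvrl1 to Pvrl4, averaged at most 1.11 RPKM in a group.

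The shares of all tested genes to set beside the counts of each list below are 4.35% higher and 5.83% lower in unstimulated KO cells. In KO cells at 48 h they are 7.76% higher and 9.81% lower. These lists too were chosen with earlier results of these data known, so their counts are not independent support. Of 8 tested ligands and partners of the other receptors, 1 was higher and 3 lower in unstimulated KO cells (4 called, against 10.2% of all tested genes), and 2 were higher and 1 lower in KO cells at 48 h (3 called, against 17.6%). Cd200r1, the receptor of CD200, fell in both states. It was at 0.978 ± 0.361 RPKM in KO and 5.99 ± 0.968 in WT cells at 48 h (log2 fold change -1.83, SE 0.15, limma adjusted p = 4.24e-06), and at 3.11 ± 0.695 in unstimulated KO and 12.1 ± 0.644 in unstimulated WT cells (-1.68, SE 0.15, adjusted p = 1.58e-05). Cd80, which can also bind PD-L1 on the same cell, was higher at 12.6 ± 0.986 RPKM in KO and 2.77 ± 0.781 in WT cells at 48 h (1.87, SE 0.27). Lgals9, the galectin that TIM-3 binds, was at 81.0 ± 1.82 RPKM in KO and 60.6 ± 9.04 in WT cells at 48 h (0.42, adjusted p = 0.00492), and was not called without stimulation (log2 fold change 0.00, adjusted p = 0.999). Lgals3, a galectin reported to bind LAG-3, was at 5.48 ± 0.921 RPKM in unstimulated KO and 10.1 ± 0.670 in unstimulated WT cells (-0.79, adjusted p = 0.00817). The HVEM gene Tnfrsf14 and the second PD-1 ligand gene Pdcd1lg2 were not called between genotypes in either state.

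Of 10 tested other inhibitory receptors, 1 was higher and 2 lower in unstimulated KO cells (3 called, against 10.2% of all tested genes), and 3 were higher and 2 lower in KO cells at 48 h (5 called, against 17.6%). Ctla4 was at 51.0 ± 4.24 RPKM in KO and 213 ± 33.3 in WT cells at 48 h, a larger genotype difference than that of any of the 10 genes at that time, and at 136 ± 26.0 in unstimulated KO and 136 ± 24.9 in unstimulated WT cells. Klrg1 was lower in KO cells in both states (-2.61 at 48 h). Cd5, which dampens T cell receptor signals, was higher at 48 h (423 ± 32.2 RPKM in KO and 290.0 ± 12.5 in WT cells, log2 fold change 0.54), and Lair1 was at 2.29 ± 0.533 RPKM in unstimulated KO and 0.865 ± 0.0257 in unstimulated WT cells. Lair1 passed the filter only through the 3 unstimulated KO libraries, so its call there is not independent of the filter. Of the 10, 8 fell and 1 rose with stimulation in KO cells, and 9 fell and 1 rose in WT cells, against 34.6% and 44.3% of all tested genes in KO and 35.4% and 44.5% in WT cells.

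Of 11 phosphatases and adaptors of inhibitory signalling, 0 were higher and 2 lower in unstimulated KO cells by limma (2 called, against 10.2% of all tested genes), and 3 were higher and 1 lower in KO cells at 48 h (4 called, against 17.6%). Sh2d1a, an adaptor of SLAM receptors, was lower in both states (66.0 ± 6.00 RPKM in unstimulated KO and 101.6 ± 1.303 in unstimulated WT cells, log2 fold change -0.62). The kinase Fyn was the other unstimulated fall (-0.31, adjusted p = 0.0193), and Dok1 (0.62), the lipid phosphatase Inpp5d (0.22) and the phosphatase Ptpn11 (0.31) were the rises at 48 h.

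Of 14 transcription factors that have been linked to checkpoint receptor expression in mouse T cells, 2 were higher and 5 lower in unstimulated KO cells (7 called, against 10.2% of all tested genes), and 2 were higher and 7 lower in KO cells at 48 h (9 called, against 17.6%). Among them Tox2 passed the filter only through WT libraries and Eomes only through KO libraries. Tox2 was at 0.155 ± 0.137 RPKM in unstimulated KO and 6.24 ± 0.623 in unstimulated WT cells (log2 fold change -2.65, SE 0.16, limma adjusted p = 1.42e-06). Prdm1, which encodes Blimp-1, was at 0.863 ± 0.177 and 2.53 ± 0.270 RPKM in the same groups (-0.92), and stayed lower in KO cells at 48 h (-0.72). Maf was at 1.47 ± 0.187 RPKM in KO and 10.4 ± 1.91 in WT cells at 48 h (-2.20, adjusted p = 5.22e-07), and Nr4a2 at 3.54 ± 0.634 and 9.93 ± 1.295 RPKM (-1.27). Stimulation raised Tbx21 by 3.71 and Nr4a3 by 2.81 in WT cells on the log2 scale.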

How the data were processed

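Treg RNA from 12 libraries (600 ng each, a stranded polyA kit per the labels' protocols) was analysed from 1 deposited table. Its RPKM values, scaled by exon length and assigned reads, were made by the authors and used as deposited. FastQC, STAR, featureCounts of Subread and DESeq2 and the build mm10 appear in the submitters' processing notes, which list neither versions nor roles; no source used here states the strand setting or the annotation. RPKM times exon length gave whole multiples of 1 read (100% within 0.01), so reads were recovered; depth was 22731823 to 32055383 reads. Of 24421 entries, 27 with a spreadsheet date for a symbol were left out. Replicate pairs differed beyond counting error (chi-square per degree of freedom from 5.67 to 37.98).

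limma 3.58.1 (R 4.3.3, mean trend) was fitted to log2(RPKM + 1) of 10406 genes with at least 1 RPKM in 3 libraries, with 1 mean per group, 4 in all (8 residual degrees of freedom), 5 contrasts and Benjamini-Hochberg adjustment within each, threshold 0.05. Recovered reads served only scaling and limma-voom alternatives. The fit was also run on simulated independent reads with the same dispersion for every gene. That is a simpler spread than that of these libraries, so the run does not test the calls above. Deviations of same-numbered libraries of the 2 states correlated at 0.27, 0.19 and 0.11 in KO cells and at 0.08, 0.13 and 0.15 in WT cells. Differently numbered ones ran from -0.22 to 0.06 in KO and from -0.10 to 0.0024 in WT cells. Deviations from a mean of 3 libraries offset each other, so the 2 kinds of value are not independent. Pairs of a KO and a WT library in the same state, which cannot share a mouse, ran from -0.125 to 0.0857. The main fit has no block, and blocks are alternatives. Members and lists were chosen with earlier results of these data known. From each other list, up to 4 genes with the smallest adjusted p between genotypes were eligible to be named. So were up to 2 with the largest change with stimulation. Tnfrsf14, Pdcd1lg2, Crtam, C1qa, C1qc, Eif2s3y and the nectin genes were added after their values were seen.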

Additional observations from a re-analysis of the deposited data

Results flagged for a closer look

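For 3 of the 10 genes the change with stimulation differed between genotypes by the interaction test of limma. The KO change minus the WT change was 3.05 for Tigit (adjusted p = 0.00062), 0.678 for Pdcd1 (adjusted p = 0.0377) and -0.797 for Lag3 (adjusted p = 0.0293), on the log2 scale. Tigit rose at 48 h in KO cells in every library, whereas the WT libraries of the 2 states overlapped.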

How the results depend on the processing

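Of 1108 checks of 1 gene in 1 comparison under an alternative, 1016 kept their direction and side of the threshold, 56 lost a call, 29 gained one and 7 changed sign, all 7 in differences near 0 that were called in neither fit. Unstimulated Cd274 (0.14) was -0.0091 without both KO libraries numbered 1 and -0.047 with the Y-linked term, and between -0.0091 and 0.25 with 1 library left out. Cd96 at 48 h (-0.05) was 0.079 without both KO libraries numbered 1, and between -0.11 and 0.079 with 1 library left out. The change of Havcr2 in KO cells (0.10) was between -0.083 and 0.25 with 1 library left out. Leaving out 1 library at a time gave 4 to 7 called genes for unstimulated KO against WT (6 with all libraries), 1 to 3 at 48 h (2), 7 to 9 with stimulation in KO (7), 7 each time with stimulation in WT (7), and 1 to 4 for the interaction (3). At 48 h the count was 1 without any 1 of WT libraries 2 and 3 and KO libraries 2 and 3; for the interaction it was 1 without unstimulated WT library 2 or 3, WT library 3 at 48 h, or KO library 2 or 3 at 48 h. Without a filter on low values the interaction count was 1, and with a replicate block by genotype and number it was 5, through Cd96 and Havcr2. A replicate block over the 12 libraries gave 5 calls for unstimulated cells (Cd160 lost) and 4 for the interaction (Pdcd1 lost). With a term for Y-linked transcripts limma called 0 genes at 48 h (4 at an unadjusted p under 0.05; limma-voom without the term called 3). Without the 4 libraries that hold them it called 1 in unstimulated cells, Tigit, and 0 both at 48 h and for the interaction (2 and 6 at an unadjusted p under 0.05), with a lone WT library per state assumed to vary like the KO groups; calls over all tested genes fell in the same fits to 85, 1210 and 22 of 10160, against 1060, 1829 and 481 of 10406 with all libraries. With the Y-linked term 1734 genes were called at 48 h. The cause of these losses was not tested. Havcr2 did not pass the filter there or at 5 RPKM. Its few reads, 22 to 184 per library, limit its precision.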
